A study of Mus musculus with 12 samples.

Results

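Calprotectin and mature neutrophil genes were followed across RNA-seq libraries of mouse bone marrow cells cultured with indole-3-propionic acid (IPA), a tryptophan metabolite made by gut bacteria. The 8 genes are *S100a8*, *S100a9*, *Ly6g*, *Csf3r*, *Retnlg*, *Padi4*, *Fpr1* and *Fpr2*. They were taken by symbol from a table of 54532 genes, each symbol occurred in it, and all 8 were among the 14894 genes expressed highly enough to be tested. The cells came from WT C57BL/6 mice and were kept in medium with GM-CSF and IL-6, cytokines that promote immature, immunosuppressive myeloid cells. They received 0.1% DMSO as vehicle, 10 µM IPA or 50 µM IPA, with fresh medium and compound on day 3, and were harvested on day 5. Each of the 3 groups had 4 libraries. The study's question was how IPA changes the cells that arise in such a culture. No sort before RNA extraction is described, so the RNA is that of all cells in the culture. In such bulk samples, fewer cells of a type and less RNA per cell cannot be told apart. By flow cytometry of cultures of this kind, the paper reports fewer Ly6C-high monocytes with IPA and no change in neutrophil abundance. It also reports slightly lower viability at the higher dose, and for that reason centred its own RNA-seq analysis on the lower dose. Whether the sequenced cultures had the same cell makeup and viability is not stated. Nothing states whether the 4 libraries of a group came from separate animals or cultures, so the p-values measure the spread between these libraries, which may be technical.

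S100A8 and S100A9 are small calcium-binding proteins that pair as calprotectin, fill the cytosol of neutrophils, bind zinc and manganese and act as alarm signals once released. A neutrophil acquires its proteins in sequence as it matures in the marrow. Primary granule enzymes come first and secondary granule proteins next, and many receptors for bacterial peptides and chemokines come late. The 8 genes cover several of these roles. *Csf3r* encodes the receptor for G-CSF, the growth factor of neutrophils, and *Fpr1* and *Fpr2* encode receptors for formylated peptides, which guide neutrophils to bacteria. *Retnlg* encodes a secreted resistin-like protein, *Padi4* the enzyme that converts histone arginine to citrulline before chromatin is released as extracellular traps, and *Ly6g* the surface protein by which mouse neutrophils are usually recognised.

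*S100a8* (ENSMUSG00000056054) and *S100a9* (ENSMUSG00000056071) are neighbours on chromosome 3 of GRCm38, at chr3:90668978-90670035 on the plus strand and chr3:90692632-90695721 on the minus strand. A stretch of 22596 bases with 0 annotated genes separates them. *Fpr1* (ENSMUSG00000045551, chr17:17876471-17883940, minus strand) and *Fpr2* (ENSMUSG00000052270, chr17:17887824-17893952, plus strand) are likewise neighbours, 3883 bases apart with 0 genes between them. All 4 are protein-coding. The sequences before their starts are shown because each pair consists of related genes that lie side by side and whose counts are compared as a ratio within each library. They are RefSeq sequences on GRCm38.p6, read 5′ to 3′ on the strand of the gene, at chr3:90668821-90668977, chr3:90695722-90695971, chr17:17883941-17884189 and chr17:17887574-17887823. Capitals mark matches to TTNNGNAA (a C/EBP-like motif) on either strand, to GAGGAA (a PU.1-like motif) on either strand and to TATAAA on the gene's strand.
S100a8: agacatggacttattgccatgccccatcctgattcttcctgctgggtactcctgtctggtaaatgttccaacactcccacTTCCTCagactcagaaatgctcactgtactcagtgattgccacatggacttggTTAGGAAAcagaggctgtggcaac
S100a9: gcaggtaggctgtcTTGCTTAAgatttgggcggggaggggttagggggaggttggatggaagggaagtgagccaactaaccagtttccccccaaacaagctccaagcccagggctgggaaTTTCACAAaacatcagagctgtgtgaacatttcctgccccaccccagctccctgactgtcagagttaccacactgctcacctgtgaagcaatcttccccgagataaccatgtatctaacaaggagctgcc
Fpr1: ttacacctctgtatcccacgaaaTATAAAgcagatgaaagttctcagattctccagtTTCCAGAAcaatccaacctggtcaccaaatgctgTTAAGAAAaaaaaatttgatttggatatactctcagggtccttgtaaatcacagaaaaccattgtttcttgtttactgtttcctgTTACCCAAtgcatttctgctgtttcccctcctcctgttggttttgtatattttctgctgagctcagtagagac
Fpr2: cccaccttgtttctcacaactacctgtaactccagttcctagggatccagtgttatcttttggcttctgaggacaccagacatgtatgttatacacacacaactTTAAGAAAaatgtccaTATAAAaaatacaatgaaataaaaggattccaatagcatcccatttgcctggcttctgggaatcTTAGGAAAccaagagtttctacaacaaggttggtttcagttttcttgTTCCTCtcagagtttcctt

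The 250 bases before each RefSeq start were searched for these letters, and the shares below come from all 32851 RefSeq promoters searched in the same way. The C/EBP-like motif lay before 6 of the 8 genes, among them all 4 genes shown, against 36.8% of all promoters. The PU.1-like motif lay before 4 of the 8 (*S100a8*, *Ly6g*, *Csf3r* and *Fpr2*) against 23.3%, and TATAAA before 5 of the 8 (*S100a8*, *Ly6g*, *Padi4*, *Fpr1* and *Fpr2*) against 7.59%. In *S100a8* a TATAAA beginning 30 bases before the RefSeq start and a PU.1-like motif beginning 36 bases before it lie beyond the printed stretch, which ends at the first annotated exon. *Fpr1* had 3 C/EBP-like motifs, beginning 193, 159 and 74 bases before its start, and *Fpr2* had 2, at 146 and 66 bases. A match does not show that a factor binds there.

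The libraries held between 20451312 and 28038612 counted reads. Expression is given in CPM, a library's count of a gene scaled to a common library total, after TMM normalization over the 12 libraries, as mean ± SD with n = 4 per group. A gene is called where edgeR's quasi-likelihood test gave a Benjamini-Hochberg adjusted p under 0.05 over all genes tested, and log2 fold changes (log2FC) come from the same fit. Libraries within a group differed by more than counting noise in every pair, with a chi-square per degree of freedom from 5.07 to 61.5, and the highest values were between vehicle replicate 4 and vehicle replicates 1 and 2. Both comparisons with vehicle use the same vehicle libraries.

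At 10 µM none of the 8 genes was called higher or lower than with vehicle. *Csf3r* fell at 50 µM to 0.778 of its vehicle level, and *Retnlg* fell at 50 µM to 0.685 of its level at 10 µM. These were the 2 calls among the 8 genes. Each involves the libraries at 50 µM, and the part of lower viability in them was not tested. Over all genes, 0.329% were called higher and 0.0806% lower at 10 µM against vehicle, 7.00% higher and 6.50% lower at 50 µM against vehicle, and 7.52% higher and 7.85% lower at 50 µM against 10 µM. The 8 genes thus had 0 calls at 10 µM, 1 lower of 8 at 50 µM against vehicle and 1 lower of 8 at 50 µM against 10 µM. The median log2FC of the 8 genes was -0.13 at 10 µM against vehicle, beside -0.006 over all genes, -0.26 at 50 µM against vehicle, beside 0.012, and -0.15 at 50 µM against 10 µM, beside 0.008. No gene of the 8 had an unadjusted edgeR p under 0.05 at 10 µM against vehicle, 4 had one at 50 µM against vehicle and 3 at 50 µM against 10 µM. The share of all genes under that cut was not counted, so these counts have no baseline. The 4 libraries at 10 µM overlapped the 4 with vehicle for all 8 genes, while 6.13% of all genes had groups that did not overlap there. With DESeq2, limma-voom and every other setting tried, 0 of the 8 were called at 10 µM.

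**Figure D1:**
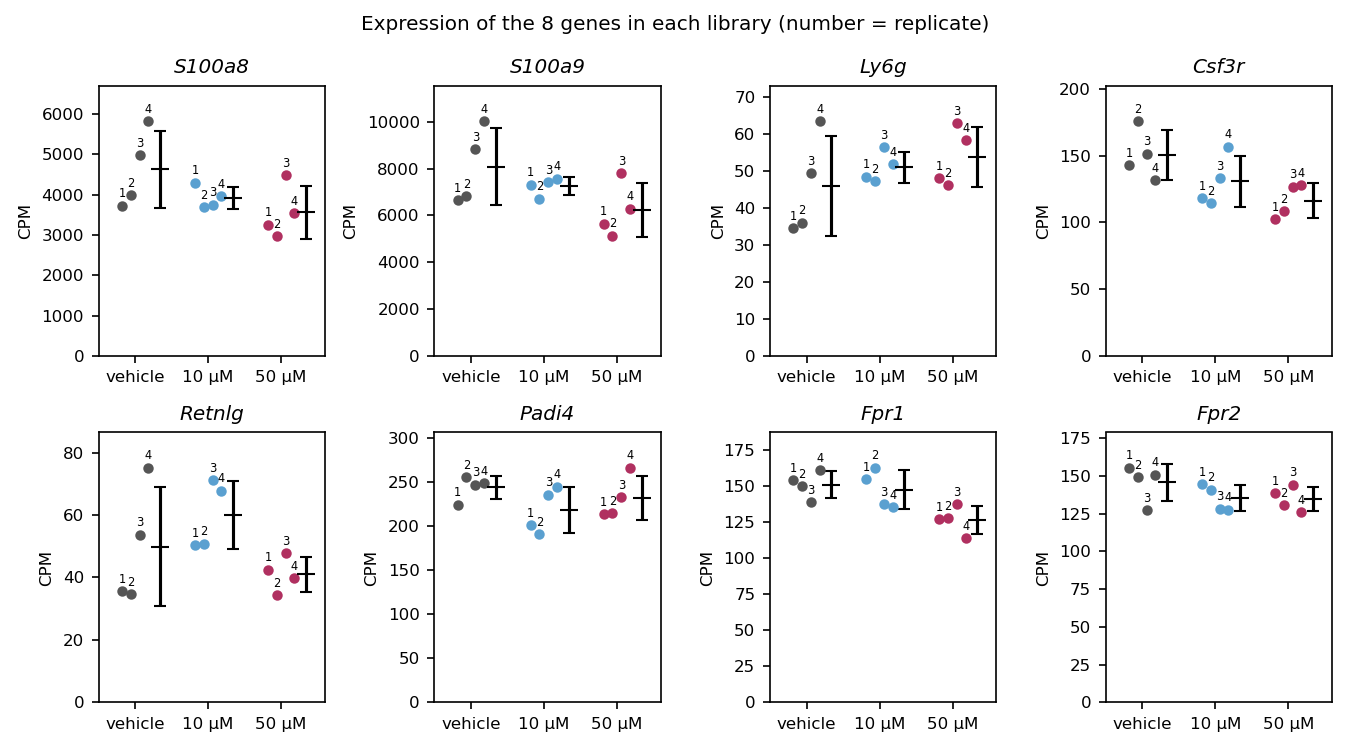
Expression of the 8 genes in each library, in CPM on a linear axis from 0, by treatment group. Points are libraries numbered by replicate and bars are mean ± SD (n = 4). Vehicle replicates 3 and 4 are the highest vehicle libraries for *S100a8*, *S100a9*, *Ly6g* and *Retnlg*, and all 4 libraries at 50 µM lie below all vehicle libraries for *Csf3r* and *Fpr1*.

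Calprotectin transcripts were among the most abundant in the culture. Per kilobase of exon, *S100a9* ranked 1 and *S100a8* ranked 2 of 14882 genes, with 13762 and 5817 CPM per kilobase over the 12 libraries, and the other 6 genes ranked between 467 and 1497. *S100a8* stood at 3722, 3993, 4970 and 5820 CPM in vehicle replicates 1 to 4, at 4292, 3690, 3750 and 3961 CPM at 10 µM and at 3258, 2970, 4474 and 3540 CPM at 50 µM. Vehicle replicates 3 and 4 were the highest of the 12 libraries, and the libraries at 50 µM overlapped those with vehicle because replicate 3 at 50 µM lay above vehicle replicates 1 and 2. The group means were 4626 ± 959 CPM with vehicle, 3923 ± 272 CPM at 10 µM and 3561 ± 652 CPM at 50 µM. *S100a9* stood at 6660, 6810, 8837 and 10021 CPM with vehicle, at 7315, 6711, 7412 and 7564 CPM at 10 µM and at 5650, 5135, 7800 and 6292 CPM at 50 µM. Its libraries were ordered as those of *S100a8* were within the vehicle and 50 µM groups. Its group means were 8082 ± 1630, 7251 ± 374 and 6219 ± 1155 CPM.

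Neither calprotectin gene was called in any comparison. At 50 µM against vehicle the log2FC was -0.37 for *S100a8* (SE 0.15, 95% interval -0.69 to -0.06, edgeR adjusted p = 0.114) and -0.37 for *S100a9* (SE 0.15, 95% interval -0.69 to -0.06, adjusted p = 0.113). With 10 µM in place of 50 µM it was -0.24 for *S100a8* (SE 0.12, adjusted p = 0.641) and -0.16 for *S100a9* (SE 0.12, adjusted p = 0.812). Between the doses it was -0.14 for *S100a8* (SE 0.10, adjusted p = 0.399) and -0.22 for *S100a9* (SE 0.10, adjusted p = 0.157). Their difference from vehicle at 50 µM passed the threshold in 4 of 16 alternative fits. These were the fit with no filter on low counts (log2FC -0.38 for each), the fit with the replicate number as a block (-0.36 for *S100a8* and -0.37 for *S100a9*), the fit with an offset that removes a trend with exon length (-0.47 and -0.48) and the fit without replicate 3 at 50 µM (-0.51 with adjusted p = 0.0436 and -0.50 with adjusted p = 0.0437). Without vehicle replicate 4 the log2FC was -0.24 for *S100a8* and -0.25 for *S100a9*, the values nearest to 0. Over the 16 fits the adjusted p ran from 0.00542 to 0.261 for *S100a8* and from 0.00406 to 0.26 for *S100a9*. Between the doses, *S100a8* passed the threshold in 1 of 16 fits, without replicate 3 at 50 µM (log2FC -0.26, adjusted p = 0.023), and its value nearest to 0 was -0.06, without replicate 2 at 50 µM (adjusted p from 0.023 to 0.766). *S100a9* passed in 3 of 16, without replicate 3 at 50 µM (-0.34, adjusted p = 0.00479), with no filter on low counts (-0.22, adjusted p = 0.00877) and with the length offset (-0.28, adjusted p = 0.0265), and its value nearest to 0 was -0.14, without replicate 2 at 50 µM (adjusted p from 0.00479 to 0.401).

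Within a library the transcripts of the pair kept a narrow ratio. The counts of *S100a8* divided by those of *S100a9* lay between 0.559 and 0.586 with vehicle, between 0.506 and 0.587 at 10 µM and between 0.563 and 0.578 at 50 µM. The ranges of the 3 groups overlapped. In two-sided exact permutation tests of the log2 ratio over the 4 libraries per group, p was 0.171 for 10 µM against vehicle, 0.943 for 50 µM against vehicle and 0.143 for 50 µM against 10 µM. Among 28 pairs of the 8 genes, this pair had the smallest root mean square difference of log2 CPM after centring each gene on its mean over the 12 libraries, 0.063, while *S100a8* alone varied by 0.252 about its own mean.

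**Figure D2:**
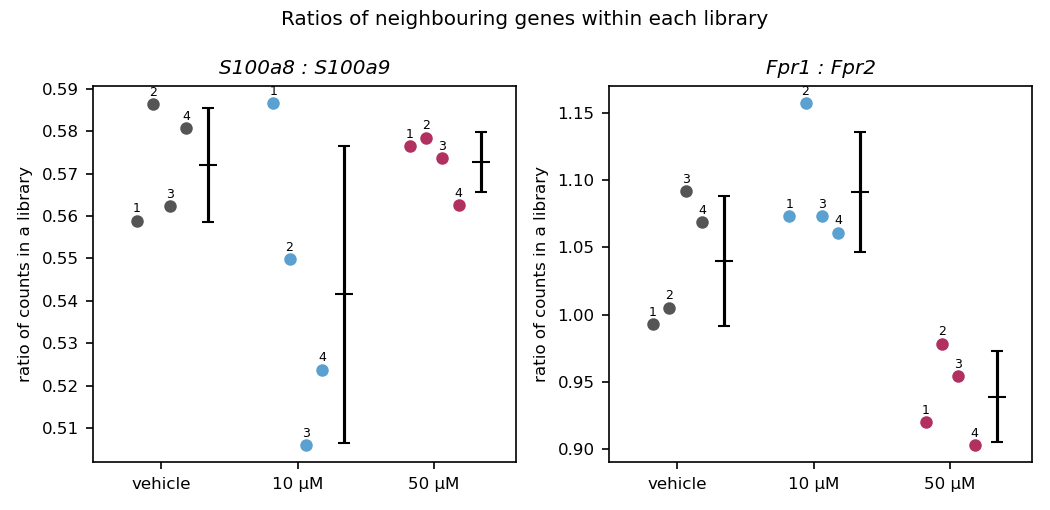
Ratio of the counts of *S100a8* to *S100a9* (left) and of *Fpr1* to *Fpr2* (right) in each library, by treatment group, with points numbered by replicate and bars for mean ± SD (n = 4). The axes do not start at 0. The calprotectin ratio stays between 0.506 and 0.587, and for *Fpr1* to *Fpr2* the libraries at 50 µM, from 0.903 to 0.978, lie below all others.

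*Csf3r* (ENSMUSG00000028859, chr4:126024550-126044440, plus strand) was the gene of the 8 that fell from vehicle to 50 µM. It stood at 143, 176, 151 and 132 CPM with vehicle, at 118, 114, 133 and 157 CPM at 10 µM and at 103, 108, 127 and 128 CPM at 50 µM. All 4 libraries at 50 µM lay below all 4 with vehicle, while those at 10 µM overlapped both groups. The means were 151 ± 18.7 CPM with vehicle, 131 ± 19.2 CPM at 10 µM and 116 ± 12.9 CPM at 50 µM. At 50 µM against vehicle the log2FC was -0.36 (SE 0.10, 95% interval -0.58 to -0.15, edgeR adjusted p = 0.0279), and the 2 genes of the 8 whose groups did not overlap were *Csf3r* and *Fpr1*, against 20.0% of all genes in that comparison. Against vehicle at 10 µM *Csf3r* had a log2FC of -0.20 (SE 0.11, adjusted p = 0.675), and at 50 µM against 10 µM of -0.16 (SE 0.10, adjusted p = 0.296). Its fall passed the threshold in 12 of 16 alternative fits, with adjusted p from 0.00366 to 0.0889, and was lost without vehicle replicate 2 (log2FC -0.29, adjusted p = 0.0599), vehicle replicate 3 (-0.36, adjusted p = 0.0765), replicate 1 at 50 µM (-0.32, adjusted p = 0.0795) or replicate 2 at 50 µM (-0.34, adjusted p = 0.0889).

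The formyl peptide receptor genes had near-equal levels per length, with 107 CPM per kilobase for each over the 12 libraries. *Fpr1* stood at 154, 150, 139 and 161 CPM with vehicle, at 155, 163, 138 and 135 CPM at 10 µM and at 127, 128, 138 and 114 CPM at 50 µM. Its libraries at 50 µM lay just below those with vehicle, the nearest being 138 CPM in replicate 3 at 50 µM and 139 CPM in vehicle replicate 3. The means were 151 ± 9.29, 148 ± 13.4 and 127 ± 9.77 CPM. At 50 µM the log2FC of *Fpr1* was -0.25 against vehicle (SE 0.08, 95% interval -0.42 to -0.08, edgeR adjusted p = 0.0520) and -0.22 against 10 µM (SE 0.08, 95% interval -0.38 to -0.05, adjusted p = 0.0685). At 10 µM against vehicle it was -0.03 (SE 0.08, adjusted p = 0.956). The difference from vehicle at 50 µM lay just above the threshold and passed it in 8 of 16 alternative fits (log2FC from -0.31 to -0.20, adjusted p from 0.00636 to 0.152), among them DESeq2 (adjusted p = 0.0174), limma-voom (adjusted p = 0.0453) and the fit without replicate 3 at 50 µM (adjusted p = 0.0367). The difference between the doses passed in 5 of 16 (log2FC from -0.26 to -0.17, adjusted p from 0.0144 to 0.221), with DESeq2, with no filter on low counts, with the length offset and without replicate 4 at 10 µM or replicate 3 at 50 µM.

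*Fpr2* stood at 155, 149, 127 and 151 CPM with vehicle, at 145, 141, 128 and 128 CPM at 10 µM and at 139, 131, 144 and 126 CPM at 50 µM. The groups overlapped, with means of 146 ± 12.5, 135 ± 8.61 and 135 ± 8.08 CPM. The log2FC was -0.10 at 50 µM against vehicle (SE 0.08, 95% interval -0.28 to 0.07, edgeR adjusted p = 0.434), and -0.11 at 10 µM against vehicle (SE 0.08, adjusted p = 0.795). Between the doses its interval ran from -0.15 to 0.14 (adjusted p = 0.995). *Fpr2* shares exon sequence with *Fpr3* on the same strand in the annotation, so its count depends on how reads in the shared part were assigned. The other 5 formyl peptide receptor genes in the table, *Fpr3* among them, did not pass the filter on low counts and summed to between 0 and 0.111 CPM in every library.

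The ratio of *Fpr1* to *Fpr2* compares the pair without library size or the makeup of the remaining RNA. It was 0.993, 1.01, 1.09 and 1.07 with vehicle, 1.07, 1.16, 1.07 and 1.06 at 10 µM and 0.920, 0.978, 0.954 and 0.903 at 50 µM. All 4 libraries at 50 µM lay below all 8 others. The log2 ratio was lower at 50 µM than with vehicle by -0.147 and than at 10 µM by -0.217, each with p = 0.0286 in a two-sided exact permutation test, the smallest p that 70 splits of 4 against 4 libraries allow. After Benjamini-Hochberg adjustment over the 6 ratio tests both were 0.0857, above the threshold. From vehicle to 10 µM the log2 ratio differed by 0.070 (exact permutation p = 0.229). The root mean square difference between the centred profiles of the pair was 0.103, no smaller than the 0.103 by which *Fpr2* varied about its own mean (0.149 for *Fpr1*), so this measure does not show the pair to share a profile.

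*Retnlg* (ENSMUSG00000022651, chr16:48872621-48874496, plus strand) had the widest spread of the 8 genes with vehicle and the other call among them. It stood at 35.6, 34.7, 53.7 and 75.1 CPM with vehicle, at 50.3, 50.9, 71.1 and 67.8 CPM at 10 µM and at 42.5, 34.3, 47.8 and 39.7 CPM at 50 µM. All 4 libraries at 50 µM lay below all 4 at 10 µM, and the vehicle libraries overlapped both groups, with replicate 4 the highest of the 12. The means were 49.8 ± 19.0, 60.0 ± 11.0 and 41.1 ± 5.60 CPM. From 10 to 50 µM the log2FC was -0.55 (SE 0.12, 95% interval -0.80 to -0.29, edgeR adjusted p = 0.00642), and *Retnlg* was the 1 gene of the 8 whose groups did not overlap there, against 20.3% of all genes. Against vehicle the log2FC was 0.27 at 10 µM (SE 0.22, 95% interval -0.22 to 0.76, adjusted p = 0.832) and -0.27 at 50 µM (SE 0.21, 95% interval -0.72 to 0.17, adjusted p = 0.432). Both values depended on single libraries. Without vehicle replicate 4 the log2FC was 0.54 at 10 µM and 0.0001 at 50 µM, and without vehicle replicate 2 it was 0.13 and -0.42, and none of these was called. The fall between the doses held in 15 of 16 alternative fits (log2FC from -0.62 to -0.45), including all that left out 1 library, and was lost with all 12 libraries in the fit (log2FC -0.55, adjusted p = 0.0861, in a range from 1.63e-08 to 0.0861).

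*Padi4* (ENSMUSG00000025330, chr4:140745865-140774236, minus strand) was called in no comparison. It stood at 225, 256, 247 and 249 CPM with vehicle, at 201, 191, 236 and 245 CPM at 10 µM and at 214, 215, 233 and 267 CPM at 50 µM. Replicates 1 and 2 at 10 µM were the lowest libraries, and the groups overlapped. The means were 244 ± 13.5, 218 ± 26.2 and 232 ± 24.5 CPM, with a log2FC of -0.16 at 10 µM (SE 0.09, edgeR adjusted p = 0.657), -0.06 at 50 µM against vehicle (SE 0.08, 95% interval -0.24 to 0.11, adjusted p = 0.661) and 0.09 at 50 µM against 10 µM (SE 0.09, adjusted p = 0.542).

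*Ly6g* (ENSMUSG00000022582, chr15:75155240-75159126, plus strand) was the gene of the 8 with a log2FC above 0 in each comparison. It stood at 34.5, 36.0, 49.4 and 63.5 CPM with vehicle, at 48.4, 47.2, 56.4 and 51.8 CPM at 10 µM and at 48.0, 46.1, 63.0 and 58.3 CPM at 50 µM. Vehicle replicates 1 and 2 lay below all libraries with IPA, while vehicle replicate 4 lay above all of them. The means were 45.8 ± 13.5, 51.0 ± 4.12 and 53.9 ± 8.11 CPM. The log2FC was 0.15 at 10 µM (SE 0.17, edgeR adjusted p = 0.887), 0.24 at 50 µM against vehicle (SE 0.17, 95% interval -0.13 to 0.61, adjusted p = 0.406) and 0.08 between the doses (SE 0.10, adjusted p = 0.634), and it was not called. Without vehicle replicate 4 the log2FC at 50 µM was 0.44 (adjusted p = 0.0292), the 1 of 16 alternative fits that called it, in a range of adjusted p from 0.0292 to 0.73. How reads shared with other members of the Ly6 family were assigned is not stated.

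**Figure D3:**
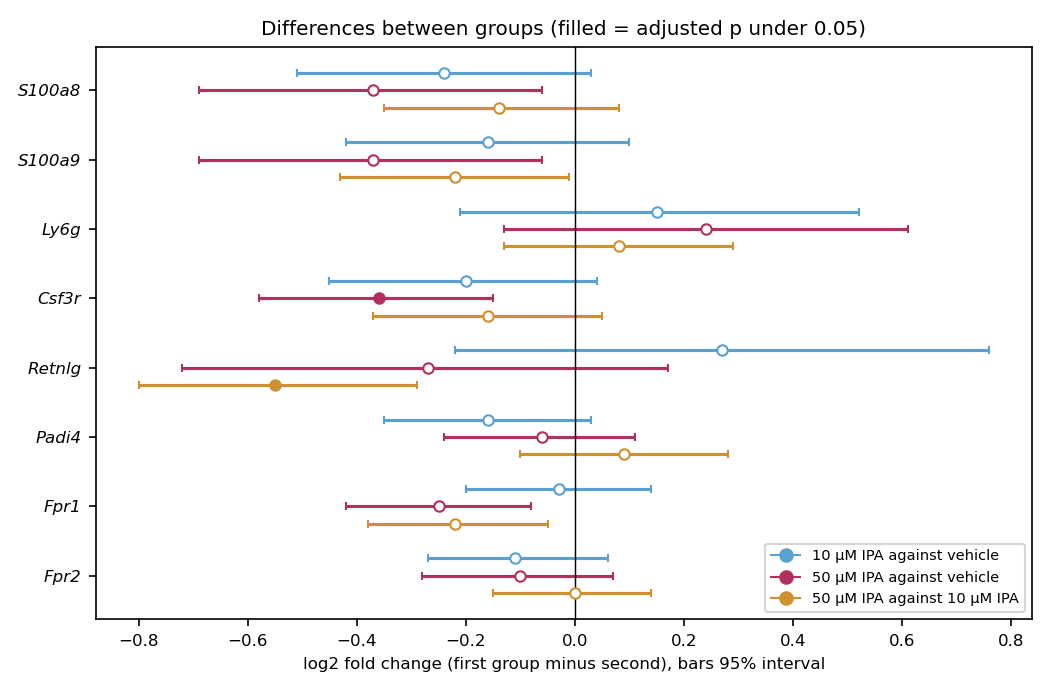
Log2FC of the 8 genes in the 3 comparisons (first group minus second) with 95% intervals from edgeR's fit, where filled points mark an adjusted p under 0.05. The filled points are *Csf3r* at 50 µM against vehicle (-0.36) and *Retnlg* at 50 µM against 10 µM (-0.55), and *Ly6g* lies above 0 in each comparison.

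The 8 genes did not share one pattern over the libraries. In vehicle replicate 4, *S100a8* (0.55), *S100a9* (0.50), *Ly6g* (0.36) and *Retnlg* (0.62) lay well above their own means on the centred log2 scale, while *Csf3r* (0.01) did not. In vehicle replicates 1 and 2, *Ly6g* (-0.51 and -0.45) and *Retnlg* (-0.44 and -0.48) lay well below their means, while *Csf3r* lay above its own (0.12 and 0.42). At 50 µM, replicate 2 had the lowest *S100a8*, *S100a9*, *Ly6g* and *Retnlg* of its group, and replicate 3 the highest. The coefficient of variation over the 4 vehicle libraries was 20.7% for *S100a8*, 20.2% for *S100a9*, 29.5% for *Ly6g* and 38.2% for *Retnlg*, against 12.4% for *Csf3r*, 8.59% for *Fpr2*, 6.15% for *Fpr1* and 5.54% for *Padi4*. At 10 µM it was 18.3% for *Retnlg* and 14.7% for *Csf3r*, and 5.16% for *S100a9*, the lowest of the 8.

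**Figure D4:**
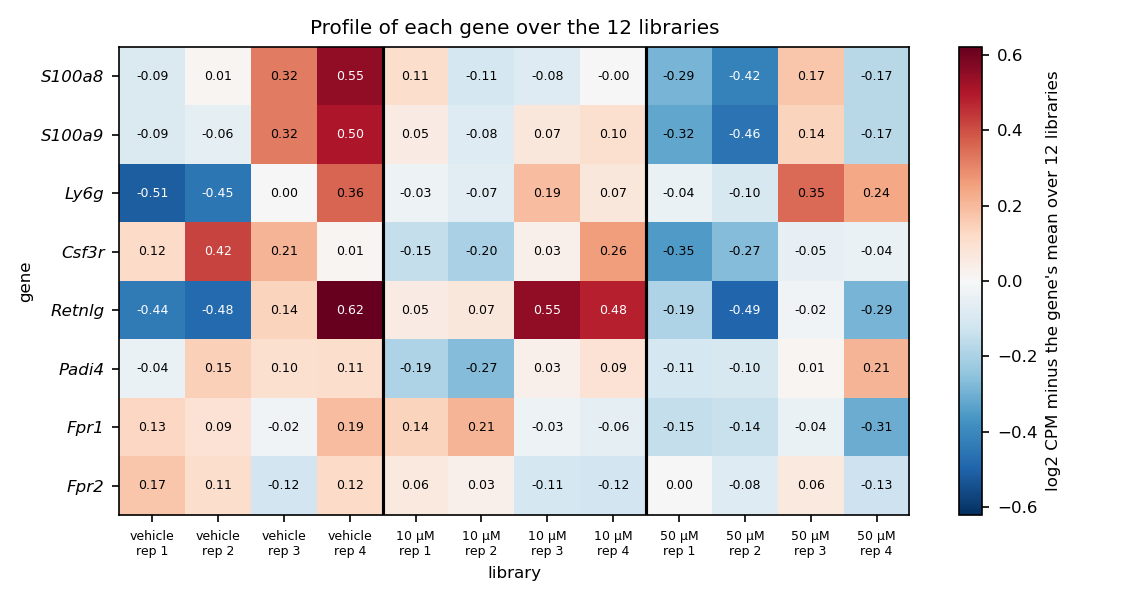
Log2 CPM of each gene minus its mean over the 12 libraries (rows are genes, columns are libraries, black lines separate the groups, and red is above and blue below the gene's mean). *S100a8* and *S100a9* rows are near copies of each other, and *Retnlg* and *Ly6g* run from -0.48 and -0.45 in vehicle replicate 2 to 0.62 and 0.36 in vehicle replicate 4.

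Likeness to other genes was measured by the same root mean square difference of centred log2 CPM over the 12 libraries, over the 8926 genes that averaged 10 CPM or more. After *S100a9*, the gene nearest to *S100a8* was *Nt5c3* (0.092), and after *S100a8* the gene nearest to *S100a9* was *Il1r2* (0.098), the decoy receptor for interleukin-1. *Csf3r* was nearest to *Adpgk* (0.062) and *Fam160a2* (0.081), *Fpr1* to *Adap1* (0.059) and *Nrros* (0.062), *Fpr2* to *Tacc3* (0.055) and *Trabd* (0.060) and *Padi4* to *Dstyk* (0.058) and *Exoc6* (0.065). The nearest genes of *Ly6g* were *Mettl9* and *Atg4c* (0.121 each), and those of *Retnlg* were *Fam162a* (0.166) and *Asprv1* (0.167), beside 0.263 for *Ly6g* and 0.380 for *Retnlg* about their own means. The measure grows with a gene's own spread, which was 0.217 for *Csf3r*, 0.149 for *Fpr1*, 0.103 for *Fpr2* and 0.139 for *Padi4*, so the values are not comparable between the 8 genes.

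Some relatives of the 8 genes were called at 50 µM, in both directions. Among all genes, 7.00% were called higher and 6.50% lower at 50 µM against vehicle, and 7.52% and 7.85% against 10 µM. Whether the share in any family differed from these was not tested. Among the 3 other resistin-like genes, the 1 that passed the filter, *Retnla*, which macrophages make in type 2 responses, rose. It lies 28159 bases from *Retnlg* with 0 genes between them and went from 0.567 ± 0.201 CPM with vehicle to 4.70 ± 1.44 CPM at 10 µM (log2FC 3.04, SE 0.32, edgeR adjusted p = 0.00399) and 65.3 ± 8.87 CPM at 50 µM (log2FC against vehicle 6.85, SE 0.18, adjusted p = 1.18e-10). Of 2 other peptidylarginine deiminase genes tested, *Padi2* rose at 50 µM from 29.7 ± 1.52 to 57.0 ± 6.65 CPM (log2FC 0.95, SE 0.09, adjusted p = 3.17e-05). Of 8 other Ly6 genes tested, 0 were higher and 2 lower at 50 µM against vehicle, and 3 were lower against 10 µM. *Ly6a* (Sca-1) fell from 55.2 ± 13.9 to 31.2 ± 6.06 CPM (log2FC -0.82, SE 0.17, adjusted p = 0.00725). The list of other S100 genes was taken by symbol and had 8 tested genes, among them *S100pbp*, which encodes a binding partner and no S100 protein. *S100pbp* was the 1 called higher at 50 µM against vehicle (17.8 ± 1.66 to 23.6 ± 1.69 CPM, log2FC 0.41, SE 0.10, edgeR adjusted p = 0.0124). *S100a4*, the 1 called lower, went from 1.19 ± 0.245 to 0.317 ± 0.0781 CPM (log2FC -1.89, SE 0.40, adjusted p = 0.00734). Its mean at 50 µM lay under the 0.5 CPM of the filter. *S100a4* thus entered the test through its vehicle and 10 µM libraries, and its fold change comes from levels near the floor. Against 10 µM the same list had 1 higher and 3 lower. Against vehicle at 10 µM 0 genes of the Ly6, S100 and deiminase lists were called.

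Genes for partners of the 8 were described by counts. The shares over all genes were 7.00% higher and 6.50% lower at 50 µM against vehicle, and 7.52% and 7.85% against 10 µM. At 10 µM against vehicle they were 0.329% and 0.0806%. Whether the partner lists differed from these shares was not tested. Of the 4 calprotectin receptor genes, 1 was called higher at 10 µM, *Cd36* (109 ± 14.5 to 174 ± 29.1 CPM, log2FC 0.68, SE 0.12, edgeR adjusted p = 0.0450). That call was kept, among the fits that left out 1 library, only without replicate 4 of either group, and over the 16 fits its adjusted p ran from 6.93e-05 to 0.226. At 50 µM 0 of the 4 were called against vehicle and 2 were lower than at 10 µM, of which *Bsg*, the basigin gene, fell from 391 ± 22.7 to 293 ± 10.4 CPM (log2FC -0.41, SE 0.06, adjusted p = 0.000290). Of 13 genes of G-CSF receptor signalling tested, 0 were called at 10 µM, 1 was higher and 3 lower at 50 µM against vehicle (median log2FC -0.07), and 2 were higher and 3 lower against 10 µM. *Socs3*, the feedback inhibitor of this receptor and of IL-6 signalling, fell beside *Csf3r* at 50 µM, from 163 ± 6.50 to 104 ± 7.03 CPM (log2FC -0.64, SE 0.07, adjusted p = 0.000103). *Csf3*, the gene of the ligand, did not pass the filter on low counts. Of 11 genes of formyl peptide receptor signalling, 0 were called against vehicle at either dose, and 1 was higher and 2 lower at 50 µM against 10 µM. Of the 5 NADPH oxidase subunits, 0 were called at 10 µM and 1 at 50 µM against vehicle, *Cybb*, the catalytic subunit, which fell from 1998 ± 40.6 to 1545 ± 86.8 CPM (log2FC -0.36, SE 0.07, adjusted p = 0.00280). Against 10 µM 1 subunit was higher and 1 lower.

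Genes of the neutrophil programme outside the 8 were also called at 50 µM, most of them lower. Beside them, 7.00% of all genes were called higher and 6.50% lower at 50 µM against vehicle, and 7.52% and 7.85% against 10 µM. Of 19 other mature neutrophil genes tested, 0 were called at 10 µM (median log2FC -0.04), 2 were higher and 9 lower at 50 µM against vehicle (median -0.32), and 3 were higher and 7 lower against 10 µM (median -0.22). *Dgat2*, an enzyme of triglyceride synthesis, fell from 115 ± 8.56 to 60.6 ± 3.95 CPM against vehicle (log2FC -0.92, SE 0.08, edgeR adjusted p = 1.24e-05), and *Cxcr2*, the chemokine receptor that draws mature neutrophils from marrow, fell from 127 ± 16.0 CPM at 10 µM to 75.4 ± 5.67 CPM at 50 µM (log2FC -0.75, SE 0.09, adjusted p = 3.41e-05). The 2 higher against vehicle, named here after their values were seen, were *G0s2*, which encodes an inhibitor of the lipase ATGL (12.1 ± 2.73 to 21.3 ± 4.99 CPM, log2FC 0.83, SE 0.18, edgeR adjusted p = 0.00872), and *Mmp9*, which encodes gelatinase B (575 ± 50.2 to 719 ± 18.8 CPM, log2FC 0.33, SE 0.08, adjusted p = 0.0109). The 3 higher against 10 µM, likewise named, were *G0s2* (log2FC 0.71, adjusted p = 0.00433), *Mmp9* (0.27, adjusted p = 0.00344) and *Hdc*, the histidine decarboxylase gene (0.43, adjusted p = 0.000862). The primary granule list held *Mpo*, *Elane*, *Prtn3*, *Ctsg* and *Ms4a3*, the last of which the paper places among genes of immature and progenitor myeloid cells. All 5 were lower at 50 µM against vehicle (median log2FC -1.02), and 4 of the 5 were lower against 10 µM. *Elane*, neutrophil elastase, went from 343 ± 81.3 to 140 ± 31.4 CPM from vehicle to 50 µM (log2FC -1.29, SE 0.17, adjusted p = 0.000355). Of the 5 secondary granule genes, 3 were lower at 50 µM against vehicle (median -0.50) and 2 against 10 µM. *Ltf*, lactoferrin, fell from 3947 ± 344 to 2449 ± 266 CPM (log2FC -0.68, SE 0.09, adjusted p = 0.000335) from vehicle to 50 µM, and *Camp*, the cathelicidin gene, from 366 ± 19.8 CPM at 10 µM to 261 ± 38.2 CPM at 50 µM (log2FC -0.49, SE 0.09, adjusted p = 0.00151). At 10 µM 0 of the primary granule genes and 1 of the secondary granule genes was called, *Chil3* (log2FC -0.33, SE 0.06, adjusted p = 0.0394), a call kept in 7 of 16 alternative fits (adjusted p from 1.8e-05 to 0.318) and, among those that left out 1 library, only without vehicle replicate 4. Of 7 transcription factors of granulocyte differentiation, 0 were called at 10 µM, 3 were lower at 50 µM against vehicle (median -0.22) and 1 against 10 µM. *Cebpd*, of the C/EBP family, fell from 55.3 ± 4.80 to 38.1 ± 3.43 CPM (log2FC -0.53, SE 0.09, adjusted p = 0.00202). Whether the share of calls differs between these lists and the 8 genes was not tested. The 9 lower calls among the mature neutrophil genes ranged from 7 to 10 when 1 library was left out, and the 5 among the primary granule genes from 4 to 5.

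Several smaller counts rested on single libraries. The 3 lower transcription factor genes at 50 µM were 1 without vehicle replicate 3 or replicate 2 at 50 µM. The 2 lower Ly6 genes were 1 without vehicle replicate 1 or without replicate 2, 3 or 4 at 50 µM. Between the doses, the 3 lower S100 genes were 1 without replicate 2 at 10 µM or replicate 2 or 4 at 50 µM, and the 1 higher was kept only without replicate 4 at 10 µM or replicate 1 at 50 µM. The 2 lower formyl peptide receptor signalling genes were 0 without replicate 2, 3 or 4 at 10 µM or replicate 2 or 4 at 50 µM, and 1 without any of the others, and the 1 higher was lost without replicate 2 of either dose or replicate 4 at 50 µM. Among the G-CSF receptor signalling genes, the 1 higher at 50 µM against vehicle was 0 without replicate 2 at 50 µM and 2 without vehicle replicate 4, and the 2 higher against 10 µM were 1 without replicate 2 or 3 at 10 µM or replicate 2 or 4 at 50 µM. The 2 lower calprotectin receptor genes at 50 µM against 10 µM were 1 without replicate 1 or 2 at 10 µM or replicate 3 or 4 at 50 µM. The 1 higher NADPH oxidase subunit there was lost without replicate 2 at 10 µM or replicate 4 at 50 µM, and the 1 lower without replicate 2 at 50 µM. Counts also moved in fits that kept every library. Against vehicle at 50 µM, up to 2 formyl peptide receptor signalling genes were lower, up to 1 calprotectin receptor gene was called in each direction and 0 to 2 S100 genes were lower. At 10 µM up to 2 transcription factor genes, 1 primary granule gene, 2 secondary granule genes and 1 NADPH oxidase subunit were lower. Between the doses, 0 to 3 formyl peptide receptor signalling genes were higher and 1 to 3 transcription factor genes lower.

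**Figure D5:**
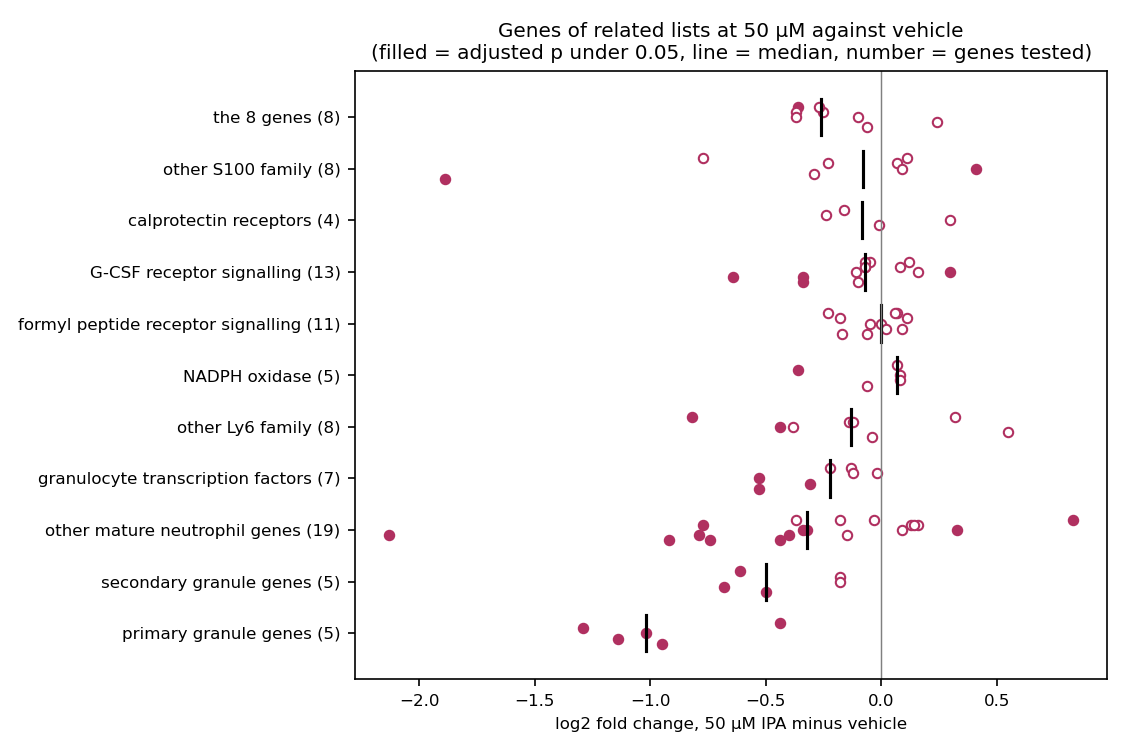
Log2FC at 50 µM IPA against vehicle of the 8 genes and of the tested genes of 10 related lists (numbers in brackets). Filled points mark an adjusted p under 0.05, vertical lines are medians. All 5 genes of the primary granule list, *Ms4a3* among them, lie below 0 and are filled, while 1 of the 8 genes is filled, and the median of the 8 genes is -0.26.

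Markers of other cell types moved with the treatment, and their part in the values of the 8 genes was not tested. Their counts stand beside 0.329% of all genes called higher and 0.0806% lower at 10 µM against vehicle. For 50 µM the shares were 7.00% and 6.50% against vehicle and 7.52% and 7.85% against 10 µM. Of 12 macrophage markers, 3 were higher at 10 µM, 2 higher and 4 lower at 50 µM against vehicle and 1 higher and 8 lower at 50 µM against 10 µM, with sums of 1903 to 2124 CPM with vehicle, 2259 to 2518 CPM at 10 µM and 1882 to 2033 CPM at 50 µM. The 3 higher at 10 µM were 0 to 6 in fits that kept every library, 0 without vehicle replicate 1 or 2 or without replicate 1, 2 or 3 at 10 µM, 1 without vehicle replicate 3 or replicate 4 at 10 µM, and the 2 higher at 50 µM were 1 in every fit that left out 1 library but those without vehicle replicate 1 or 4. *Mrc1*, the mannose receptor, was lower at 50 µM than with vehicle (log2FC -0.69, SE 0.12, edgeR adjusted p = 0.00232). Of 6 monocyte markers, 1 was higher at 10 µM, 4 were lower at 50 µM against vehicle and all 6 were lower against 10 µM, with sums of 2542 to 3235, 3682 to 4751 and 2216 to 2955 CPM. The 1 higher at 10 µM was 0 to 2 in fits that kept every library, 0 without vehicle replicate 1 or replicate 2 at 10 µM and 2 without vehicle replicate 4. *Ccr2* fell from 505 ± 16.5 CPM at 10 µM to 204 ± 15.4 CPM at 50 µM (log2FC -1.31, SE 0.07, adjusted p = 7.21e-09). No macrophage or monocyte marker was at 0 in a group. Against vehicle at 50 µM, 5 of 6 B cell markers were higher (sums of 19.1 to 27.2 CPM with vehicle and 37.9 to 60.9 CPM at 50 µM), as were 4 of 9 dendritic cell markers (sums of 695 to 754 and 720 to 899 CPM) and 1 of 5 mast cell and basophil markers tested (195 to 235 and 224 to 262 CPM, with *Cma1* and *Mcpt4* at 0). The 4 dendritic cell markers were 1 without vehicle replicate 3 and 2 without vehicle replicate 1 or replicate 1 or 2 at 50 µM. Of 7 eosinophil markers 1 was higher and 2 were lower (1098 to 1347 and 851 to 1122 CPM), and of 5 progenitor markers 1 was higher and 1 lower (78.3 to 83.8 and 74.6 to 81.6 CPM). At 50 µM against 10 µM, 5 B cell, 2 dendritic cell, 1 mast cell and basophil and 1 progenitor marker were higher, as was 1 eosinophil marker (0 without replicate 3 at 10 µM or replicate 2 or 3 at 50 µM), and 2 eosinophil markers were lower. At 10 µM against vehicle 0 markers of these 5 lists were called. In fits that kept every library, up to 1 dendritic cell marker was higher there, and at 50 µM up to 1 dendritic cell marker and 1 mast cell and basophil marker were lower than with vehicle. The 3 T and NK cell and 2 erythroid markers tested had 0 calls in each comparison and sums of at most 17.8 and 2.03 CPM.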

How the data were processed

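RNA-seq was performed on 12 libraries of cultured mouse bone marrow cells, 4 per group. Libraries were made with a stranded mRNA kit. The authors ran bcbio-nextgen, with Atropos for trimming and HISAT2 (2.2.1) for alignment to mm10, counted reads per Ensembl gene with featureCounts (2.0.1) and deposited raw counts with 1 column per library. The submitters' processing notes also list DESeq2 (1.40.2) and R (4.3.0). The strand setting and the treatment of reads shared by several genes are not given in the sources used here, so counts of overlapping genes and close relatives are uncertain. Replicate 3 at 10 µM carries the title of replicate 2 and was identified by the name of its library.

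From these counts, genes were kept that exceeded 0.5 CPM in 2 or more of the 12 libraries (14894 of 54532, of which 28302 had no read), and each comparison was fitted to its 8 libraries with TMM normalization and edgeR's quasi-likelihood test (edgeR 4.0.16, R 4.3.3), and p-values were adjusted by Benjamini-Hochberg across every tested gene, with calls at 0.05. All adjusted p-values of fold changes come from edgeR unless DESeq2 (1.42.0) or limma-voom (limma 3.58.1) is named. The scripts were tested on simulated data. Ratios within a library were compared by exact permutation tests. Levels were divided by merged exon length only to compare genes. Alternatives were limma-voom, DESeq2, edgeR with the size factors of DESeq2, testing without a filter, requiring 10 counts in each library, all 12 libraries in one fit, the replicate number as a block, an exon length offset, and leaving out each library. The 8 genes and the related lists were chosen with earlier results of these data known. Genes named from a list came from a rule allowing at most 2 per comparison, the called genes with the largest absolute log2FC, or the most abundant where none was called. *G0s2*, *Mmp9* and *Hdc* were named outside it. The most alike genes were the 2 with the smallest root mean square difference from each gene. Counts of list genes under the alternatives were added after seeing the data. Promoters came from RefSeq on GRCm38.p6, and all 8 genes matched.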

Additional observations from a re-analysis of the deposited data

Results flagged for a closer look

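The ratio of *Fpr1* to *Fpr2* counts at 10 µM IPA was 1.16 in replicate 2, while the other 3 libraries of the group lay between 1.06 and 1.07. The gap to the nearest library was 0.870 of the group's range, above Dixon's 95% critical value for 4 libraries. Of 30 groups of values tested this was the 1 that stood out, and chance alone gives about 1 in 20 groups.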

How the results depend on the processing

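Of 192 refits of the 8 genes that left no library out, 172 kept the direction and the side of the threshold, 18 newly passed it, 1 no longer did and 1 turned, and of 192 that left out 1 library the numbers were 174, 8, 4 and 6. For the list genes named, 186 of 189 and 179 of 192 kept both, and the others no longer passed. The exceptions were the calls of *Cd36* and *Chil3* at 10 µM. *Mrc1* at 10 µM was not among the refits counted here. *S100a4* and *Retnla* had too few reads for a fit that required 10 counts in every library. The cause of these changes was not tested.

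The number of genes called at 10 µM against vehicle, 61, was 250 with DESeq2, 150 with no filter, 118 with all 12 libraries in the fit and 102 with the length offset. Leaving out 1 library gave 4 to 122. At 50 µM against vehicle it was 2010, with 1248 to 2689 when 1 library was left out (1248 without vehicle replicate 3 and 1313 without replicate 2 at 50 µM), and between the doses it was 2289, with 1604 to 2269. Of the 8 genes, 1 was called at 50 µM against vehicle, but 2 with DESeq2, limma-voom, DESeq2's size factors, at least 10 counts or all 12 libraries, 4 with no filter or the length offset, and 0 to 4 with 1 library left out (4 without replicate 3 at 50 µM). At 50 µM against 10 µM, 1 was called, but 2 with DESeq2, 3 with no filter or the length offset, 0 with all 12 libraries and 1 to 4 with 1 library left out (4 without replicate 3 at 50 µM).

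Some values crossed 0. *Fpr1* at 10 µM ran from -0.08 to 0.01 (log2FC) with 1 library left out, *Retnlg* at 50 µM against vehicle, -0.27 with all libraries, from -0.42 to 0.0001 (without vehicle replicate 4) and *Fpr2* between the doses from -0.03 to 0.04, with 0.0006 at 10 counts or more in every library. The log2 difference of the *S100a8* to *S100a9* ratio at 50 µM against vehicle ran from -0.009 to 0.014.

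The deviations of same-numbered libraries from their group means correlated from -0.242 to 0.142, and not every pair was over 0.1, so the numbers were not used to pair libraries. Whether they mark a shared source is not stated. With the replicate number as a block, 3 genes were called at 10 µM, 1830 at 50 µM against vehicle and 2200 between the doses, and 3 of the 8 genes at 50 µM against vehicle, with *S100a8* (log2FC -0.36, adjusted p = 0.0315) and *S100a9* (-0.37, adjusted p = 0.0215) besides *Csf3r*.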
